A study of Rattus norvegicus with 8 samples.

Results

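The genes described here are 10 components of the piRNA pathway and of germ granules: Piwil1, Piwil2, Piwil4, Ddx4, Tdrd1, Tdrd9, Mael, Mov10l1, Asz1 and Pld6. They were chosen by name, and a gene counted as measured where the accession of an array probe matched it in the rat RefSeq table. By this rule 6 of the 10 genes were measured, by 7 probes, among 15154 genes with a probe in all, and no probe matched Piwil4, Tdrd9, Mov10l1 or Pld6, for which no expression value is given. All 6 measured genes passed the filter on dim probes and were among the 10236 genes tested. The samples were cells sorted by flow cytometry with an antibody to CD9, a surface protein of spermatogonia and of other cells, from testes of Sprague-Dawley rats that carried a green fluorescent protein transgene specific to germ cells. Of the 8 one-colour arrays, 4 held cells of young rats at 4 months of age and 4 held cells of aged rats at 21 months, and both groups carried the transgene and were sorted with the same antibody. Neither the promoter of the transgene nor the number of rats behind a sample is given in the labels. The p-values therefore reflect only how far these samples varied, and that variation may be technical.

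PIWI-interacting RNAs (piRNAs) are small RNAs of the germ line that guide PIWI proteins, a branch of the Argonaute family, to silence transposable elements and to regulate germ cell transcripts. Precursor transcripts are cut and matured at the outer surface of mitochondria and in germ granules, dense cytoplasmic bodies rich in RNA and in Tudor-domain proteins that bind methylated arginines of PIWI proteins. In the mouse testis, loss of many of these genes arrests spermatogenesis, and PIWI proteins succeed one another from fetal germ cells to round spermatids.

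The RefSeq promoter table of build GRCr8 held 8 of the 10 genes, among them 5 of the 6 measured, as windows of 300 bases (250 before and 50 after the annotated start). All measured genes in the table are shown because their windows hold more CpG dinucleotides, the target of DNA methylation in germ-line genes, than the median promoter and mostly share an E-box. Capitals mark matches, on either strand, to CACGTG (a palindromic E-box, bound by basic helix-loop-helix factors) or to CAACTG (a MYB motif, also read as CAGTTG on the other strand), which do not overlap each other here.
Piwil1, chr12:33606534-33606833, minus strand: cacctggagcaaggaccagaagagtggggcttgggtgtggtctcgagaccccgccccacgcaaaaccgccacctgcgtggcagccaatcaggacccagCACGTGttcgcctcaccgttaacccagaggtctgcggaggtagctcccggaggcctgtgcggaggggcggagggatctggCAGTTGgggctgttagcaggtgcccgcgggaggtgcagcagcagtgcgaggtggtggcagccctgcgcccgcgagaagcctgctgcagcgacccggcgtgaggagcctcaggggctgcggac
Ddx4, chr2:46015902-46016201, minus strand: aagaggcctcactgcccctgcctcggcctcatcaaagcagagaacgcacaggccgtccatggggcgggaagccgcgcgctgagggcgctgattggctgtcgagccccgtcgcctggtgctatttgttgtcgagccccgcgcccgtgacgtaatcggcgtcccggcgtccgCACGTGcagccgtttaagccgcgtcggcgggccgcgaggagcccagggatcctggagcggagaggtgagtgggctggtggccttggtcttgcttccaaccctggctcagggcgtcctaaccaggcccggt
Tdrd1, chr1:265880775-265881074, plus strand: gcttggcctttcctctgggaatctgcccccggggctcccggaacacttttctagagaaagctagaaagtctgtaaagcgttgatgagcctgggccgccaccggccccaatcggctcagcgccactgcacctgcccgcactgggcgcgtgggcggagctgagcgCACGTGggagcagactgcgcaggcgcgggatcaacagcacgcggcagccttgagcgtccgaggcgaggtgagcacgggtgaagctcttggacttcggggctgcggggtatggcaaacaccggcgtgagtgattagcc
Mael, chr13:81029574-81029873, minus strand: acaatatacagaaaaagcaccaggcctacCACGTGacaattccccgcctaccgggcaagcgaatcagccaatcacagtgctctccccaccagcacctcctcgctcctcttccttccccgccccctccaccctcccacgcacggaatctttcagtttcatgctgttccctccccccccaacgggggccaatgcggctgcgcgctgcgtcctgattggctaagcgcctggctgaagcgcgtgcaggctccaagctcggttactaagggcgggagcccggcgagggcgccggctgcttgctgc
Asz1, chr4:47421927-47422226, minus strand: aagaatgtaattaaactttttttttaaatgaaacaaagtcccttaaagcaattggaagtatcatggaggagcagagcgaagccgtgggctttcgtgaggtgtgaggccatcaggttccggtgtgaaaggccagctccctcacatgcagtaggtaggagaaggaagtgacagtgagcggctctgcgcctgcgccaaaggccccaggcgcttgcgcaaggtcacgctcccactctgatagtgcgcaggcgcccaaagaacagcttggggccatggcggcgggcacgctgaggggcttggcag
CACGTG was present in 4 of these 5 windows, starting 152 bases before the annotated start in Piwil1, 80 in Ddx4, 87 in Tdrd1 and 221 in Mael. The unmeasured Mov10l1 also held it (154 bases before the start), which makes 5 of the 8 windows. Over 33469 promoters of the same length 6.42% held CACGTG, and among the 10717 with at least 15 CpG the share was 10.9%. CAACTG was found in the window of Piwil1 alone among the 8, starting 72 bases before the start, against 13.9% of all promoters. The 8 windows held 12 to 32 CpG, with 32 in Ddx4, 26 in Tdrd1, 22 in Piwil1 and in Mael and 15 in Asz1. The median promoter held 7, with quartiles of 3 and 19. Ddx4, Tdrd1, Piwil1 and Mael lay above the upper quartile. Asz1 and the unmeasured Piwil4, Mov10l1 and Pld6 lay within the quartiles. Asz1 held neither motif and had the fewest CpG of the measured windows. Whether the content of a window is related to a change with age was not tested. A match describes letters in a window and does not show that a factor binds there.

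The arrays were of similar brightness, with a 75th percentile of 326 to 524 intensity units and 63.0% to 72.0% of probes well above background. Values below are log2 signals relative to that percentile of the same array, and changes are aged minus young in this unit. All probes differ in how they bind, so levels are not compared between genes. All 8 shared 1 slide and 1 scan. Each age filled its own row of that slide, so an effect of position cannot be told apart from one of age. Cd9 and the spermatogonial genes Zbtb16 and Kit were above background on all 8 arrays, and so were 11 of 15 markers of undifferentiated spermatogonia, while Pax7 and Thy1, named after their values were seen, were above it on none. Markers of other cells were present too, with 21 of 21 spermatocyte and 28 of 30 spermatid markers above background on all arrays. Young replicate 1 stood apart from the other young arrays in several such lists, for example with a mean spermatid marker value of −0.51 against 0.57 to 1.14 (values relative to the 8-array mean of the same gene). Aged replicate 2 likewise lay below the other aged arrays in that list, at −1.18 against −0.51 to −0.19.

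None of the 6 measured genes passed the test between young and aged cells in the limma fit (0 of 6), whose threshold was a Benjamini-Hochberg adjusted p under 0.05 over all genes tested. A p that misses this threshold does not show that levels were equal, and the intervals below give the sizes these arrays allow. Of all genes tested 67 passed (0.655%), 51 higher and 16 lower in aged cells. Of the 6 genes, 4 had higher and 2 lower values in aged cells, a split that became 5 and 1 with scaling to array medians and 2 and 4 with scaling to spike-in RNA. Their median change was 0.14, against 0.11 for all genes tested, of which 36.6% had lower values. An unadjusted p under 0.05 was reached by 1 of the 6, Asz1, and by 31.4% of all genes tested. The 4 aged and 4 young values overlapped in all 6 genes, whereas they did not overlap in 14.3% of all genes tested. In a bulk sample fewer cells of a type and less RNA per cell cannot be told apart.

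**Figure D1:**
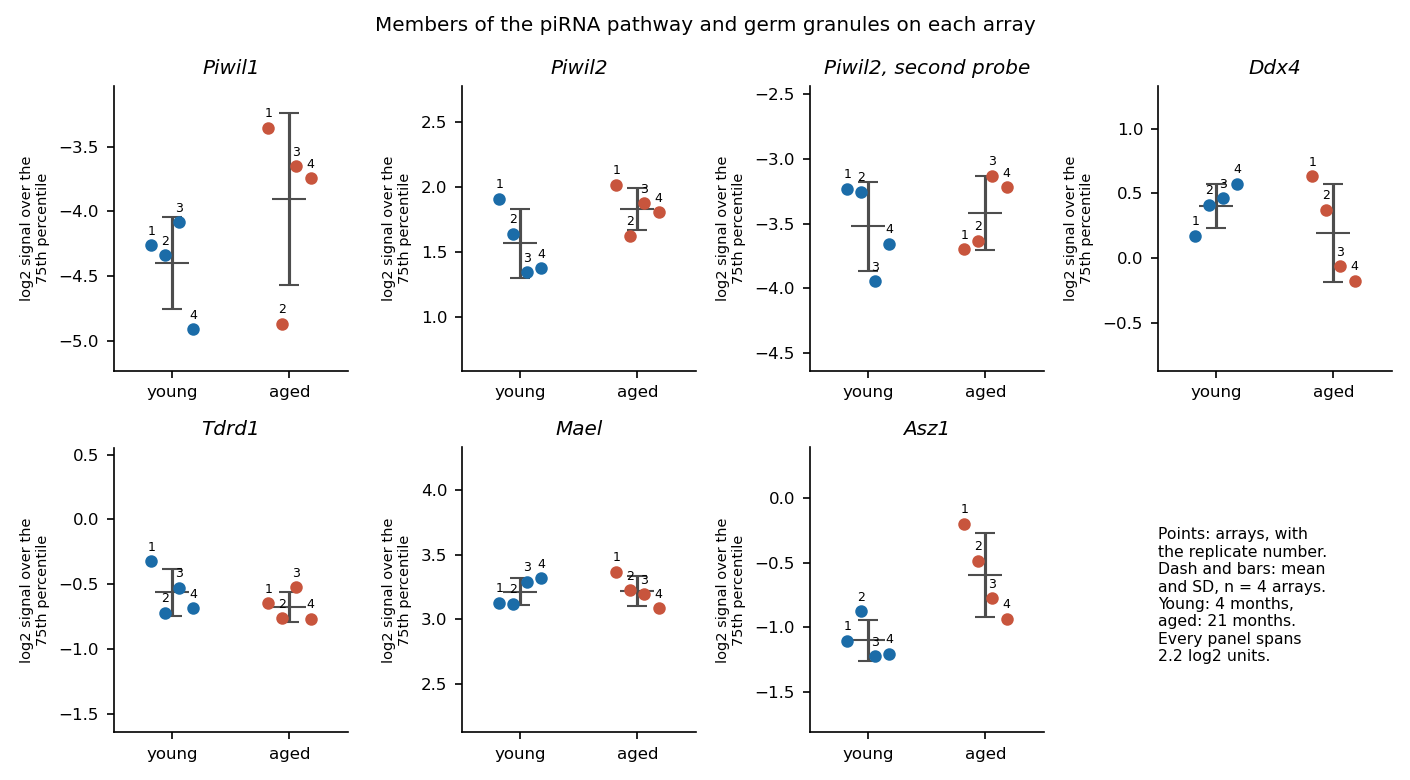
Log2 signal over the 75th percentile of the array (vertical axis) for the 7 probes of the 6 measured genes on the 4 young and 4 aged arrays, with points numbered by replicate and the mean and SD of each group. Asz1 is the gene with the least overlap, with 3 of 4 aged arrays above all young arrays, while the points of Mael and Tdrd1 lie close together in both groups.

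Piwil1 (Miwi) and Piwil2 (Mili) encode PIWI proteins, the effectors that carry piRNAs. Piwil1 is known from pachytene spermatocytes and round spermatids, and Piwil2 from spermatogonia through to round spermatids. Piwil1 (probe accession NM_001108853) stood at −4.26, −4.34, −4.09 and −4.91 in young replicates 1 to 4 and at −3.35, −4.87, −3.65 and −3.74 in aged replicates 1 to 4. Thus 3 aged arrays lay above all young arrays and the aged replicate 2 lay near the lowest young array. The mean was −4.40 ± 0.36 (SD, n = 4) in young and −3.91 ± 0.66 in aged cells, a change of 0.49 with a 95% interval of −0.22 to 1.21 (limma, adjusted p = 0.301). Without aged replicate 2 the change was 0.82 (adjusted p = 0.147), and without aged replicate 1 it was 0.31 (adjusted p = 0.531).

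The Piwil1 probe was the dimmest of the 7, with processed signals of 9.47 to 42.2 intensity units. Of its 16 spots 14 were well above background, and on young replicate 4 and aged replicate 2, its lowest arrays, 1 of the 2 spots was not. The 2 spots of an array differed by a median of 0.33 and by up to 1.04 on the log2 scale. The standard deviation of single spots within an array was 0.366, against 0.532 between arrays of a group. Array values are means of 2 spots, which vary less than single spots, so these measures are not alike. Its change was 0.21 with normexp background correction and percentile scaling and 0.22 with normexp and quantile scaling, with neither passing. Normexp was run with an offset of 50, above the processed signals of this probe. Such an offset makes log2 differences of dim probes smaller, so these values do not bear on the size of the change. With quantile normalization and no normexp it was 0.69 (limma, adjusted p = 0.157).

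Piwil2 (NM_001107276) was measured by 2 probes, of which the brighter entered the fit. That probe read 1.91, 1.64, 1.34 and 1.37 in young replicates 1 to 4 and 2.02, 1.63, 1.88 and 1.81 in aged replicates 1 to 4. Young replicate 1 was the highest young array and lay within the aged range, and 3 of the 4 aged values lay inside the young range. The change of Piwil2 was 0.27 with an interval of −0.08 to 0.61 (limma, adjusted p = 0.257). Without young replicate 1 it passed, with a change of 0.38 (adjusted p = 0.0471), but 3776 genes (36.9% of those tested) passed in that fit, so the call does not set Piwil2 apart from other genes. It also passed with array weights (0.40, adjusted p = 0.0190), where 4564 genes passed. With scaling to spike-in RNA its change was below 0 (−0.19, adjusted p = 0.381).

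The dim Piwil2 probe, at 24.7 to 64.1 intensity units against 1030 to 1990 for the bright one, gave a smaller difference. It read −3.23, −3.25, −3.95 and −3.65 in young and −3.70, −3.63, −3.13 and −3.22 in aged replicates 1 to 4. The groups overlapped widely, with a difference of 0.10 (exact permutation test over the arrays, two-sided, p = 0.600). Within the groups the probes ordered the arrays differently, with aged replicate 1 the highest aged array by the bright probe and the lowest by the dim one. The spots of the dim probe had a standard deviation of 0.301 within an array, against 0.097 for the bright probe.

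Ddx4 (Vasa), a DEAD-box RNA helicase, is a defining component of germ granules. Ddx4 (NM_001077647) stood at 0.17, 0.41, 0.46 and 0.57 in young replicates 1 to 4 and at 0.63, 0.37, −0.06 and −0.18 in aged replicates 1 to 4. Its aged arrays spread over 0.81 log2 units and reached both above and below the young range of 0.40. The change of −0.21 had an interval of −0.64 to 0.21 (limma, adjusted p = 0.448). With 1 array left out the change ran from −0.36 without aged replicate 1 to −0.09 without aged replicate 4. The probe had 1 spot per array, bright on all of them (367 to 693 intensity units).

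Tdrd1, a Tudor-domain protein that binds PIWI proteins in the granules between mitochondria, and Mael (Maelstrom), a granule protein needed to silence transposons, were the genes that varied least. Tdrd1 (NM_001106202) read −0.32, −0.72, −0.53 and −0.69 in young and −0.65, −0.76, −0.52 and −0.77 in aged replicates 1 to 4. Young replicate 1 was its highest array and the other 7 lay within 0.25 of one another. The change of Tdrd1 was −0.11, with an interval of −0.39 to 0.17 (limma, adjusted p = 0.549).

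Mael (NM_001108857) read 3.13, 3.12, 3.29 and 3.32 in young and 3.37, 3.23, 3.19 and 3.09 in aged replicates 1 to 4. The young values all lay within the aged range, which was 0.28 wide. The change of Mael was 0.005, and the interval of −0.24 to 0.25 limits its fold to between 0.848 and 1.19 on this scale. Its sign turned under several settings, down to −0.45 with scaling to spike-in RNA, none of which passed. The standard deviation between arrays within a group was 0.110 for Mael and 0.153 for Tdrd1, against a median of 0.209 over all genes tested, 0.293 for Ddx4 and 0.532 for Piwil1. Among the genes with 2 spots per array (Piwil1, Piwil2, Mael and Asz1) Mael was also the most precise within arrays, where its paired spots differed by a median of 0.047. Tdrd1 and Ddx4 had 1 spot per array.

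Asz1 (Gasz), which anchors germ granule proteins at the mitochondrial surface, had the largest difference relative to its error. Asz1 (NM_130750) stood at −1.10, −0.88, −1.22 and −1.20 in young replicates 1 to 4 and at −0.20, −0.49, −0.78 and −0.93 in aged replicates 1 to 4. All aged arrays but replicate 4 exceeded the highest young array, replicate 2, and aged replicate 4 exceeded the other 3 young arrays. The means were −1.10 ± 0.16 (SD, n = 4) and −0.60 ± 0.32, a change of 0.50 ± 0.17 (SE) or 1.42-fold, with an interval of 0.12 to 0.89. It did not pass over all genes tested (limma, unadjusted p = 0.0158, adjusted p = 0.0990), and it ranked 1630 by p among the 10236 genes tested.

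Single spots of the Asz1 probe had a standard deviation of 0.062 within an array, against 0.255 between arrays of a group, whose values are means of paired spots. Leaving out each array in turn gave changes from 0.37 (without aged replicate 1) to 0.61 (without aged replicate 4), and none of these passed (adjusted p from 0.0679 to 0.247). Asz1 passed with scaling to array medians (0.66, adjusted p = 0.0425) and with array weights (0.46, adjusted p = 0.0309), settings in which 1330 and 4564 genes passed. With scaling to spike-in RNA, which placed the median gene at −0.35, the change was 0.05 (adjusted p = 0.885).

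**Figure D2:**
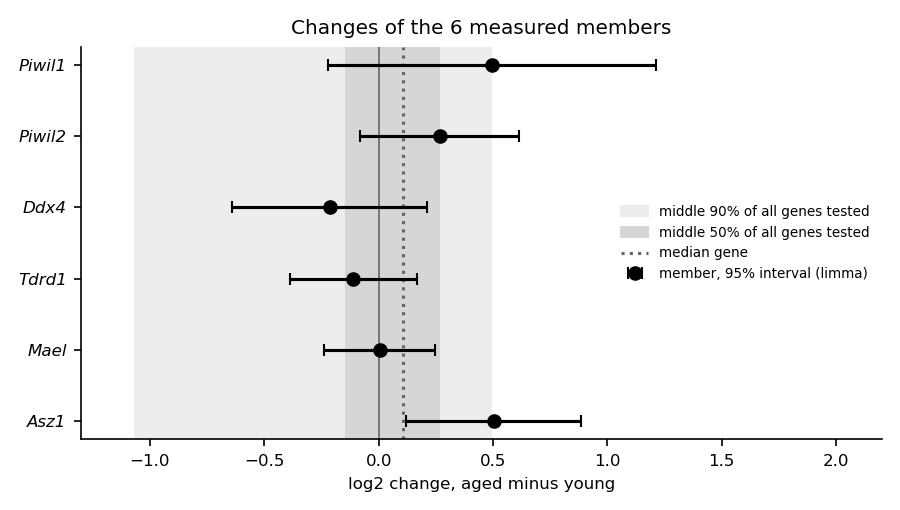
Log2 change (aged minus young, horizontal axis) of the 6 measured genes with 95% intervals from limma, over an inner band that spans the quartiles of all genes tested (−0.14 to 0.26) and an outer band that runs from −1.07 to 0.49. The interval of Asz1 (0.12 to 0.89) alone lies above 0, and the changes of Piwil1 and Asz1 sit at the upper edge of the outer band.

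The 6 genes differed in how their values ran across the arrays. The 8-array mean of a gene was subtracted from its values, and genes were compared by the mean absolute difference of these values. The most alike pair was Tdrd1 and Mael (0.131) and the least alike Piwil1 and Ddx4 (0.556). Aged replicate 1 was above the gene's own mean in 5 of the 6 genes, Tdrd1 being the exception, with a mean over the genes of 0.37. On the other 7 arrays that mean lay between −0.19 and 0.08. Aged replicate 1 also had the highest mean of the spermatocyte markers, 0.40, and whether its higher values are related to that was not tested.

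By the same measure the genes outside the set closest to Asz1 over the 8 arrays were Rbm39, an RNA-binding splicing factor (0.051), Rev3l, the catalytic subunit of DNA polymerase zeta (0.057), and Zfp292, a zinc-finger gene (0.060). Their changes were 0.42, 0.55 and 0.43. The closest to Piwil2 were Trim14 (0.034), the signalling ligand Wnt11 (0.051) and Arl6ip1 (0.052), with changes of 0.30, 0.21 and 0.21. These are the nearest profiles among the 10236 genes tested, over 8 arrays, and none of these 6 genes passed in the limma fit.

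Other genes of the pathway were taken from lists of 56 genes, of which 35 were tested, and 0 passed over all genes tested (limma), against 0.655% of those. An unadjusted p under 0.05 was reached by 8 of the 35, a smaller share than the 31.4% of all genes tested. Of the 35, 23 had higher and 12 lower values in aged cells, with a median change of 0.10, close to that of all genes tested. Without young replicate 1, 9 of the 35 passed, a share of the list to be set beside the 36.9% of all genes that passed in that fit.

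Among other piRNA biogenesis genes 11 of 14 were tested, 8 with higher and 3 with lower values (median 0.11), a split that turned to 10 with lower values under scaling to spike-in RNA. Gtsf2, a paralogue of the piRNA cofactor Gtsf1, had the largest difference. It read −1.49, −0.19, 0.74 and 0.92 in young replicates 1 to 4 and −1.80, −3.22, −2.32 and −2.13 in aged replicates 1 to 4. Its groups did not overlap, which held for 2 of the 35 pathway genes tested and for 14.3% of all genes tested. The change of Gtsf2, −2.36 ± 0.52 (SE), did not pass (limma, adjusted p = 0.0561). Gpat2, a mitochondrial acyltransferase-like protein needed for piRNA production, read 1.84, 2.60, 1.6 and 1.71 in young and 2.90, 3.02, 2.48 and 2.18 in aged replicates 1 to 4. Aged replicates 3 and 4 lay within the young range, and the difference was 0.71 (limma, adjusted p = 0.112).

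Of the other germ granule and chromatoid body genes 12 of 15 were tested, 6 in each direction (median 0.002), with 11 lower under scaling to spike-in RNA. Tdrd6, a Tudor-domain protein of the chromatoid body, the large granule of spermatids, read −2.13, −0.97, −0.12 and −0.37 in young and −2.51, −3.76, −2.03 and −2.25 in aged replicates 1 to 4. Young replicate 1 lay within the aged range and the other young arrays above it, and the change of −1.74 did not pass (limma, adjusted p = 0.0750). Dazl, an RNA-binding protein of germ cells, read 4.67, 4.31, 4.15 and 4.07 in young and 5.0, 4.91, 4.65 and 4.71 in aged replicates 1 to 4. Young replicate 1 was its highest young array and lay just above the lowest aged array, and the difference was 0.52 (limma, adjusted p = 0.0801). Without young replicate 1, Gtsf2, Tdrd6 and Dazl each passed, Gtsf2 at −2.86, Tdrd6 at −2.15 and Dazl at 0.64 (limma, adjusted p = 0.00374, 0.00882 and 0.00795). In that fit 36.9% of all genes tested passed, so these calls do not set the 3 genes apart.

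Marker lists of other cells differed between the same arrays. Of 30 spermatid markers tested 0 passed and all had lower values in aged cells (29 with scaling to array medians), with means per array of −0.51 to 1.14 on young and −1.18 to −0.19 on aged arrays. Of the 30, 28 were above background on all arrays, and 2 passed the filter on dim probes through the young arrays alone, which favoured a lower aged value. Of 21 spermatocyte markers 8 passed as higher (Msh5, Meiob, Tex101, Syce1, Msh4, Spata22, Sycp3 and Dmc1, genes of meiotic recombination and chromosome pairing apart from the surface protein gene Tex101), and 16 had higher values in all. The other 5 had lower values and did not pass: Ccna1 (−1.54, limma adjusted p = 0.0527), Pgk2 (−1.025), Ldhc (−0.94), Clgn (−0.50) and Hspa2 (−0.39). The change of Ccna1 was the largest of the list in size. With percentile scaling, the means of all 21 markers were −0.27 to −0.15 on young and 0.04 to 0.40 on aged arrays, which did not overlap. None of these 8 passed without any single array other than young replicate 1, with no scaling, with dim or unnamed probes added or with the replicate block. The 16 higher values became 14 with scaling to spike-in RNA.

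Undifferentiated spermatogonia markers had lower values in 9 of 12 (0 passed, 1 through the filter on young arrays alone), with a median of −0.16. With scaling to array medians 7 of the 12 had lower values. Their means were 0.03 to 0.22 on young and −0.17 to −0.05 on aged arrays, which did not overlap. Of the marker lists, only this one and the spermatocyte list had means that did not overlap. List means were taken with percentile scaling only. Differentiating spermatogonia markers had lower values in 3 of 5 (0 passed), with a median of −0.03 and means of −0.08 to 0.28 on young and −0.16 to 0.04 on aged arrays. The somatic lists did not share a direction. Values were lower in 12 of 13 peritubular myoid and stromal markers (median −1.55, Cspg4 fell) and in 12 of 12 macrophage markers (median −0.74), of which 1 and 3 passed the filter through the young arrays alone. Sertoli markers were lower in 4 of 8 (median 0.07, Rhox5 rose), Leydig markers in 4 of 7 (median −0.10) and endothelial markers in 4 of 6 (median −0.41). The means of the myoid list ran from −0.58 to 1.13 on young and from −1.33 to −0.29 on aged arrays. Young replicate 1 was the lowest young array and aged replicate 2 the lowest aged array. The same held for the spermatid list and for Gtsf2 and Tdrd6. The medians of the spermatocyte, spermatid, myoid, macrophage, endothelial and undifferentiated lists kept their sign under the other scalings and background corrections tried, the last with a median of −0.009 under scaling to array medians. Those of the Leydig list (0.06 with array medians), the differentiating list (0.13 with array medians) and the Sertoli list (−0.39 with spike-in RNA) did not. The part of these markers in the differences of the pathway genes was not tested. The 6 measured members, with changes of −0.21 to 0.50, lay between the medians of the spermatid (−1.03) and spermatocyte markers (0.74). Most genes tested did too, with a 5th percentile of −1.07 and a 95th of 0.49, so this does not set the members apart.

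The remaining lists were small, and all 4 had negative medians (−0.55 to −0.22) under scaling to spike-in RNA. PIWI proteins are methylated on arginine by Prmt5 and its partners, and of that list of 4 genes Clns1a (0.30, limma adjusted p = 0.132) and Wdr77 (0.26, adjusted p = 0.151) had the smallest p. In piRNA-directed silencing 3 of 8 were tested, with Dnmt3l, a cofactor of DNA methylation in germ cells, at −0.36 (adjusted p = 0.203) and the methyltransferase Dnmt3a at −0.09 (adjusted p = 0.667). Of the transcription factors Mybl1 (A-MYB), which drives piRNA genes in pachytene spermatocytes, differed by 0.23 (adjusted p = 0.279) and the germ cell factor Sohlh2 by 0.25 (adjusted p = 0.478). Of the microRNA and siRNA machinery 3 of 9 were tested, with Dgcr8, a partner of Drosha, at 0.36 (adjusted p = 0.147) and Tarbp2, a partner of Dicer, at 0.15 (adjusted p = 0.541).

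**Figure D3:**
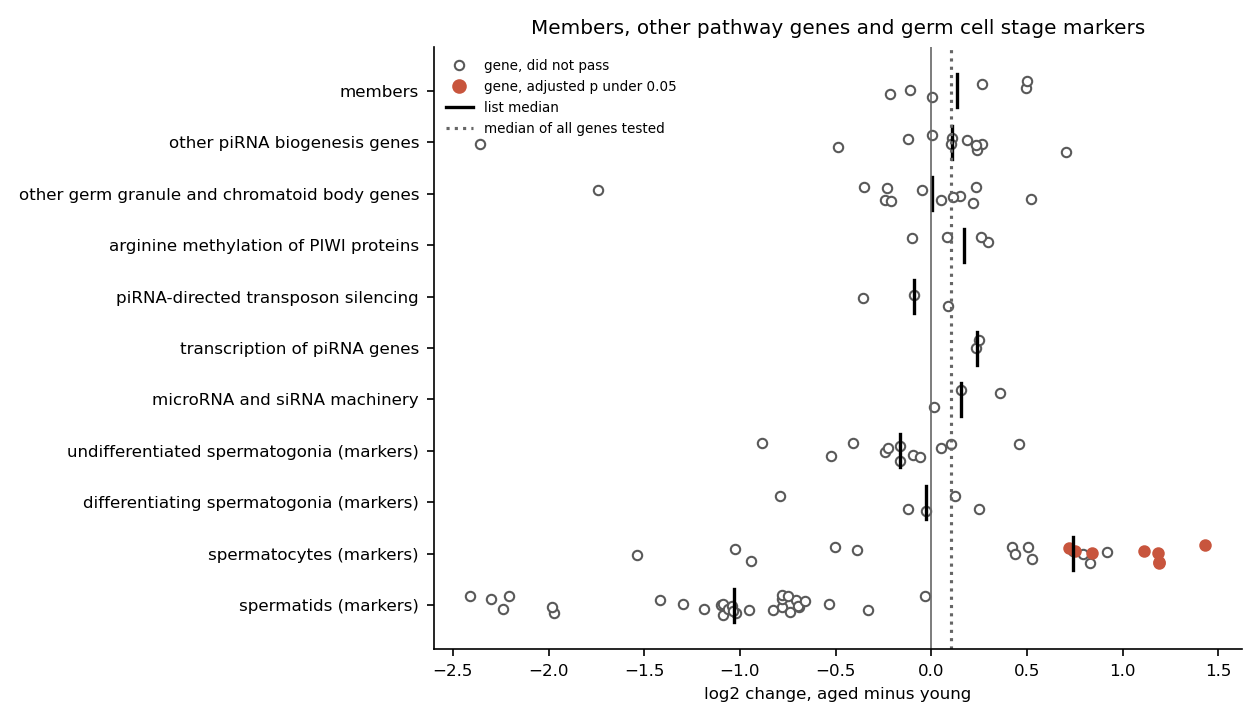
Log2 change (aged minus young, horizontal axis) of each tested gene of the 6 members, of 6 other pathway lists and of 4 lists of germ cell stage markers, with the list median as a bar and genes past an adjusted p of 0.05 filled. No pathway gene is filled, while 8 spermatocyte markers are, and the 30 spermatid markers all lie below 0 (29 with scaling to array medians).

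The sizes of the members' changes depended on how arrays were scaled to one another. The median gene stood at 0.11 with percentile scaling, at 0.26 with scaling to array medians and at −0.35 with scaling to 4 spike-in RNA probes, settings that shift all genes of an array alike. Relative to the median gene of the same fit, Piwil1, Piwil2 and Asz1 lay higher, and Ddx4, Tdrd1 and Mael lower, in each of 23 other settings. Part of this agreement was fixed in advance. Scaling that shifts all genes of an array alike cannot change this relative value. Neither can trend and robust eBayes or the replicate block, which kept the same changes. The count of settings is therefore not a count of independent checks. Asz1 ranged from 0.26 to 0.50 above the median gene, Piwil1 from 0.12 to 0.73 and Piwil2 from 0.08 to 0.25. The value of Ddx4 relative to it ran from −0.55 to −0.20.

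**Figure D4:**
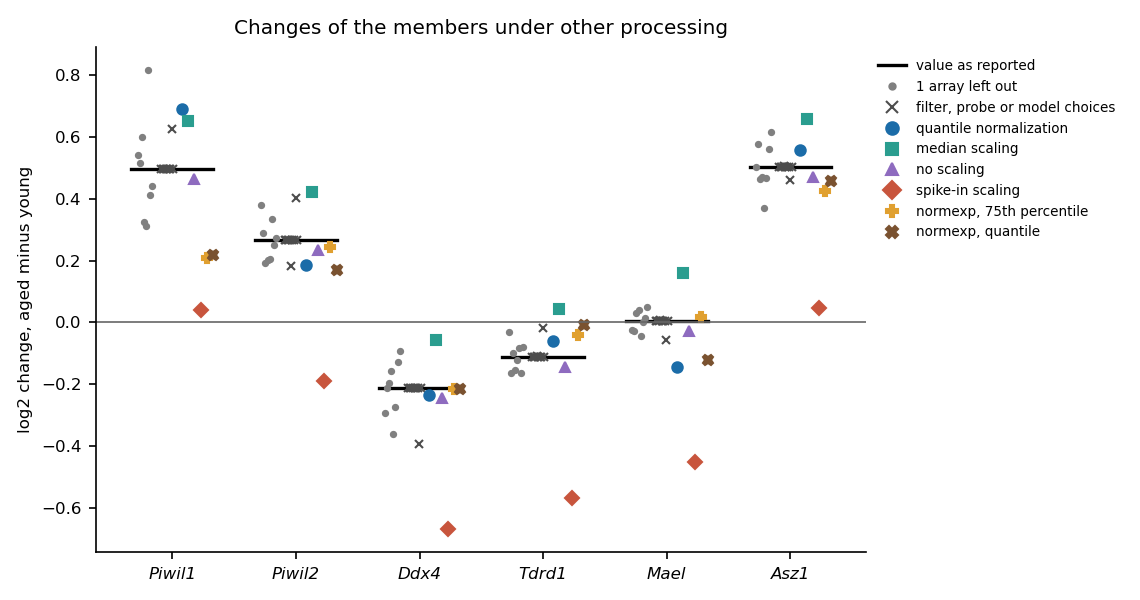
Log2 change (aged minus young, vertical axis) of the 6 measured genes as reported (bar) and under other scaling, background correction, filters, models and with 1 array left out (symbols). Scaling to spike-in RNA gave the lowest value in all 6 genes. Normexp correction lowered the value of the dim Piwil1 probe to 0.21 or 0.22, with an offset of 50 that makes log2 differences of dim probes smaller.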

How the data were processed

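Cy3-labelled RNA (18 ng per sample) of 4 young and 4 aged samples was hybridised to one-colour Agilent rat arrays. The deposited processed signal is an intensity made by Agilent Feature Extraction (10.7.3.1 per the file headers, 12.5 per the submitters' processing notes) after removal of background and of a surface trend. It had not been scaled across arrays. The deposited spot and background medians are raw intensity values, used for normexp, and other deposited columns are 0 or 1 flags. The authors' series table holds log2 values centred per probe, whose direction followed the scanner values (r of 0.893 to 0.986 over 10236 genes). How its arrays were scaled is not given in the sources used here. Its array medians were 0.09, −0.07, −0.14 and −0.06 for young and −0.02, 0.05, 0.07 and −0.003 for aged replicates 1 to 4.

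Outlier spots were left out, log2 values of a probe's spots were averaged, and the 75th percentile over the 30367 non-control probes of an array was subtracted. Probes were designed on rn4 per the file headers and were named by unversioned accession from the RefSeq table of GRCr8 (17998 probes, 15154 genes). A probe was kept if, on all arrays of at least 1 group, a share of 0.5 or more of its spots passed the well-above-background flag, and the brightest kept probe stood for a gene. No spot was saturated. Aged and young arrays were compared with limma 3.58.1 (lmFit, eBayes, two-sided, R 4.3.3), which was first tested on simulated data. The simulation drew the noise of each gene independently, so it did not cover deviations that many genes of an array share. Adjusted p-values are Benjamini-Hochberg values over the 10236 genes of this fit. Those given for another setting were adjusted over the genes tested in the fit of that setting. The precision is limited by the number of arrays. By rule the named genes were the 10 members, the called genes and the 2 of smallest p in each pathway list, at most those in a marker list (here the called ones), the 3 nearest profiles of the 2 members of smallest p, and Cd9, Zbtb16 and Kit. The 5 spermatocyte markers with lower values were named in addition, after their values were seen. The members and lists were chosen with earlier results of these data known.

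The alternatives were other scalings, normexp with an offset of 50, the authors' table, other filters, probe choices and models, a block for the replicate number, and leaving out each array.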

Additional observations from a re-analysis of the deposited data

How the results depend on the processing

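The count of members that passed was 0 as reported and 1 with scaling to array medians, with a threshold of 0.1 and without young replicate 1, 2 with array weights, and 0 under the other settings tried, with a range of 0 to 1 when 1 array was left out. The count of members with lower values in aged cells was 2 as reported, 1 with median scaling and 4 with spike-in scaling (2 to 3 with 1 array left out). Asz1 kept its direction in all 23 other settings, passed at 0.66 with median scaling and at 0.46 with array weights, and met the threshold of 0.1 at 0.50 (0.37 to 0.61 with 1 array left out). Piwil2 passed at 0.40 with array weights and at 0.38 without young replicate 1, and turned to −0.19 with spike-in scaling and Tdrd1 to 0.044 with median scaling. Mael turned to −0.15 with quantile normalization, −0.027 with no scaling, −0.45 with spike-in scaling, −0.12 with normexp and quantile, −0.057 with array weights, and −0.024, −0.026 and −0.045 without young replicate 1, young replicate 2 and aged replicate 1 (−0.045 to 0.048 over all 8 arrays left out in turn). Spike-in and median scaling shift all genes of an array alike, and relative to the median gene Piwil2 stood at 0.160 and 0.161, Mael at −0.101 and −0.100 and Tdrd1 at −0.217 and −0.216 under them. The cause of the other turns was not tested.

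The number of all genes called was 67 as reported, 1330 with median scaling, 1067 with spike-in scaling (6 higher, 0.562%, against 76.1% as reported), 630 (57.6% higher) and 253 (86.6% higher) with normexp and percentile or quantile scaling, 270 with trend and robust eBayes, 4564 with array weights (63.2% higher) and 1674 at a threshold of 0.1. In limma it was 0 in unscaled data (1389 genes had an unadjusted p below 0.05), 0 when dim probes were kept (3339 such genes), 0 when unnamed probes entered (4929) and 0 with the replicate block (3231). With 1 array left out it ran from 0 to 3776, the latter without young replicate 1. Without young replicate 2 it was 1, and without any of the other 6 arrays it was 0 in limma, where 1951 to 3009 genes had an unadjusted p below 0.05. The count in the pathway lists was 3 with median scaling, 7 with spike-in scaling, 3 with normexp and percentile scaling, 10 with array weights and 3 at a threshold of 0.1 (0 to 9 with 1 array left out).

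The replicate numbers share only a number. Deviations of same-numbered arrays correlated at −0.264, −0.115, 0.440 and 0.352 across genes, no young array correlated best with its own number, and in the replicate block fit Asz1 stayed at 0.50 (adjusted p = 0.0923) and no member passed. The highest such correlation of any young with any aged array was 0.685, between young replicate 1 and aged replicate 2. Signals near background limit Piwil1 and the dim Piwil2 probe.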
